A study of Mus musculus with 9 samples.

Results

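The 45 genes described here build the secretory apparatus of the endoplasmic reticulum (ER) and its stress response, the unfolded protein response. They were chosen by name for their textbook roles, with earlier results of these data known, so the choice is not independent of the data. Every array probe annotated with a member's symbol was taken, which gave 79 of the 45281 probes on the array and 45 of its 19057 annotated genes. RNA from 3 mouse cell lines, END2, PYS2 and XEN, was hybridized to 9 Illumina bead arrays, 3 for each line, to compare lines that are used as models of extra-embryonic endoderm. END2 is a line from P19 embryonal carcinoma cells, PYS2 came from tumor cells of mouse strain 129, and the XEN line (xen10) was derived from blastocysts of strain ICR. PYS2 and XEN cells were kept in high glucose DMEM with serum, sodium pyruvate and β-mercaptoethanol, whereas END2 cells were kept in DMEM/F12 with serum, whose list of additions names neither sodium pyruvate nor β-mercaptoethanol, so that wherever END2 is compared, line and medium cannot be told apart. Each line is a single line, and the sources do not say whether its 3 arrays came from separate cultures. The p-values therefore measure the spread between arrays, which may be technical.

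Proteins bound for secretion are recognized by the signal recognition particle as they leave the ribosome and pass through the Sec61 translocon into the ER, where signal peptidase removes the signal peptide and chaperones and disulfide isomerases fold the chain. Folded cargo leaves in COPII-coated vesicles, KDEL receptors bring escaped ER residents back, and chains that fail to fold are sent to the proteasome. When unfolded chains build up, the sensors Ern1 (IRE1), Eif2ak3 (PERK) and Atf6 act through Xbp1, Atf4 and Ddit3 (CHOP) to raise folding and export capacity. Parietal endoderm is known as a heavily secreting tissue, since it lays down the basement membrane called Reichert's membrane.

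A probe was taken as detected where its detection p-value was under 0.01, and it was tested where 2 or more of a line's 3 arrays detected it. Levels are log2 intensities after background correction and quantile normalization between arrays. Differences between lines are differences of those levels, fitted with limma over 16299 tested probes and called at an adjusted p under 0.05. A gene with several tested probes is represented by whichever of them had the highest mean, which left 9354 genes. Levels of different genes are not compared, since each depends on its probe. A member's signal on an array rested on 20 to 70 beads, with a median standard error over beads of 3.84% of the signal. The highest such error among the tested members, 25.9% of the signal, was at the Atf4 probe. XEN replicate 2 was the brightest array before normalization, with a median signal of 43.5 against 21.3 to 30.9 on the other arrays. END2 replicate 3 stood farthest from its own line, at Euclidean distances of 72.1 and 78.5 from the other END2 arrays, which were 35.0 apart. Of 12 markers of extra-embryonic endoderm, 9 were present in END2 and all 12 in PYS2 and in XEN, and Sox17, Sox7 and Lama1 were detected on none of the END2 arrays. The 9 include Gata4, Pdgfra and Foxa2, at mean END2 signals of 91.8, 182 and 85.6. By qRT-PCR, however, the paper found neither Gata4 nor Pdgfra in END2 cells, and Foxa2 in PYS2 cells only. Of 8 fibroblast markers, 7 were present in END2, among them Dcn and Col1a1, and 1 in each of the other lines. The summed signal of those 8 was 6895 to 14478 in END2, 237 to 321 in PYS2 and 222 to 403 in XEN. Of 7 pluripotency markers, 1 was present in END2 (Nanog), 1 in PYS2 (Dppa5a) and 2 in XEN (Utf1 and Dppa5a), and Pou5f1 was detected on no array. The summed signal of those 7 was 309 to 364 in END2, 20323 to 25208 in PYS2 and 222 to 513 in XEN. Dppa5a alone had a mean signal of 22900 in PYS2, beside 72.2 in XEN and 35.7 in END2. What the cell makeup of the cultures contributes to the differences below was not tested, and fewer cells expressing a gene cannot be told apart from less RNA per cell.

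Of the 45 members, 39 were tested and 34 of these were detected on all 9 arrays. The tested members were present in all 3 lines with few exceptions, with 37 of 39 present in END2, as in PYS2, and 38 in XEN. Canx, Manf, Ero1l (annotated as Ero1a), Spcs2, Atf6 and Kdelr1 had no probe that was detected on any array. Their signals ran from 12.1 to 72.7, and nothing is said here about their transcripts. The mean level was highest in XEN for 22 of the 39 tested genes, in END2 for 12 and in PYS2 for 5, while it was lowest in PYS2 for 20, in END2 for 14 and in XEN for 5. The median deviation of the members from their own means over the arrays was 0.22 to 0.30 in XEN, -0.04 to -0.01 in END2 and -0.30 to -0.10 in PYS2. Over all tested genes the same medians lay between -0.05 and 0.03.

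**Figure D1:**
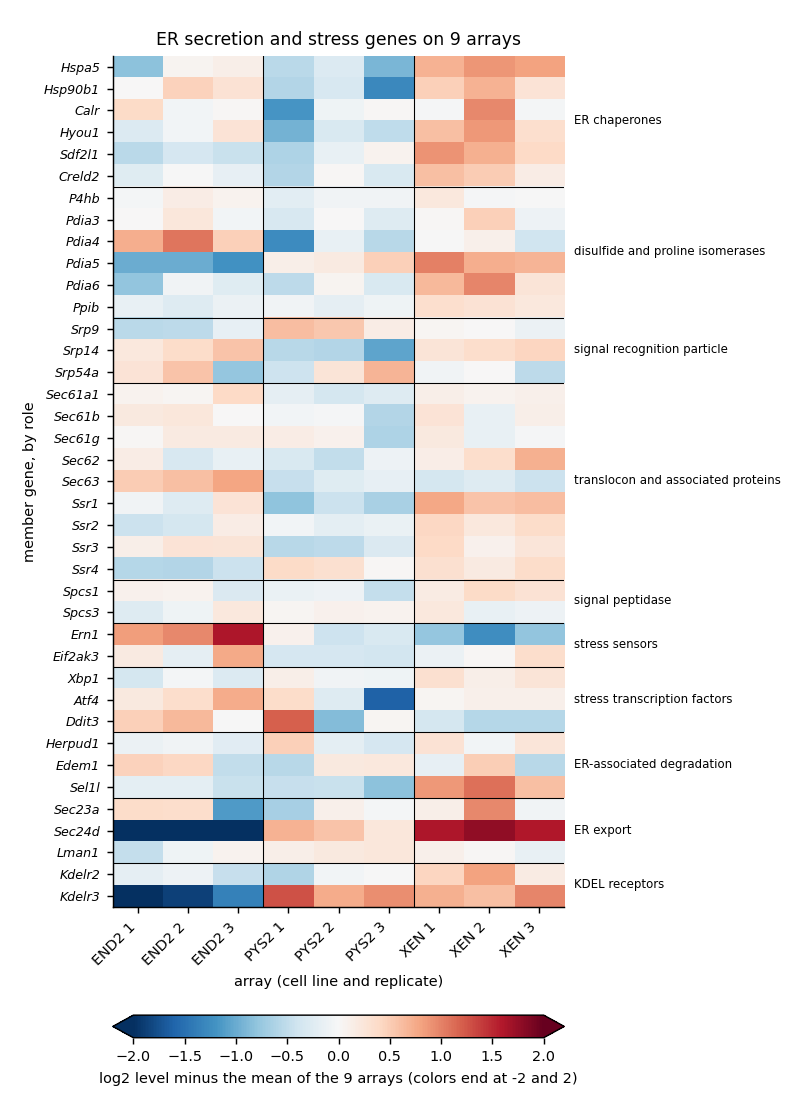
Log2 level of each of the 39 tested member genes (rows, grouped by role) on each of the 9 arrays (columns), shown as the difference from that gene's mean over the arrays; red is above and blue below the mean, and colors end at -2 and 2. Most chaperone rows are red on the 3 XEN arrays, whereas Sec24d and Kdelr3 are darkest blue on the 3 END2 arrays and Ern1 is red there.

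The calls differed in their balance between the comparisons. Between PYS2 and XEN, 15 members were lower in PYS2, 1 was higher and 23 did not pass, which is 38.5% lower and 2.56% higher. Over all genes tested 18.4% were lower and 21.2% higher in PYS2, and the median difference was -0.46 for the members against 0.02 for all genes. Between END2 and XEN, 15 members were lower in END2 and 3 higher (38.5% and 7.69%), beside 26.7% and 27.5% of all genes, with medians of -0.30 and -0.02. Between END2 and PYS2, 9 members were higher in END2 and 5 lower (23.1% and 12.8%), beside 26.4% and 28.8% of all genes, with medians of 0.19 and -0.03. These comparisons share arrays, so their counts are not independent of each other. Among the 39 genes 26 passed in at least 1 comparison, and in none of the 48 calls did the arrays of the lines overlap. Neither count was made over all genes, so neither is read as a trait of the members. With no normalization between arrays fewer members passed, 6 lower in PYS2 than in XEN, and 2 higher and 3 lower in END2 than in XEN, and no call changed direction. Counts over all genes under that setting are not set beside these, so the drop is not read as a trait of the members. That setting moved the median of all genes to 0.13 for END2 minus XEN and to 0.16 for END2 minus PYS2.

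Promoter sequences are shown for the members whose start regions hold elements known from the unfolded protein response, because these genes recur in the results below. RefSeq promoters of 300 bases (build GRCm38.p6), from 250 bases before the start to 50 after it, were on hand for 37 of the 45 members. They were searched on both strands for the ER stress response element, ERSE (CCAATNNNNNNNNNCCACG), for ERSE-II (ATTGGNCCACG), for the core of the unfolded protein response element, UPRE (TGACGTGG), and for the C/EBP-ATF element (TGATGNAA). ERSE is bound by NF-Y together with ATF6, and the UPRE by XBP1 or ATF6. An ERSE lay in 6 of the 37 member promoters (16.2%), those of Hspa5, Hsp90b1, Calr, Canx, Creld2 and Pdia6, beside 0.119% of all 32851 promoters. ERSE-II was found in Herpud1 only (2.7% against 0.0365%). The UPRE core lay in Kdelr3, Sec24d and Sec23a (8.11% against 0.676%), and the C/EBP-ATF element in Herpud1 and Kdelr1 (5.41% against 3.97%). No matches overlapped, although ERSE, ERSE-II and the UPRE core share the letters CCACG on a strand. A match is a description of letters only and shows no binding, and the members were chosen with this response in mind. Only exact matches to these letters were counted, so a promoter without a match may still hold a near match.

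The promoters of Hspa5 (chr2:34771840-34772139, plus strand), Hsp90b1 (chr10:86705395-86705694, minus strand) and Pdia6 (chr12:17266339-17266638, plus strand) are printed for their ERSEs, which stand in capitals. Those of Sec24d (chr3:123267246-123267545, plus strand) and Kdelr3 (chr15:79516158-79516457, plus strand) are printed for their UPRE cores in capitals, which in Kdelr3 reads from the opposite strand. The start used for Sec24d lies inside the gene's annotated span, so the window belongs to 1 of its transcripts.
Hspa5: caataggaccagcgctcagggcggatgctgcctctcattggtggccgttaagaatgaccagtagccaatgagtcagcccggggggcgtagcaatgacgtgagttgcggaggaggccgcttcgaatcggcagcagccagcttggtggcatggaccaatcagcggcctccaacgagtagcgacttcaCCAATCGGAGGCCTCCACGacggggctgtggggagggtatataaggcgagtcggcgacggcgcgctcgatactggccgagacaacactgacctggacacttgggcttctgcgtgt
Hsp90b1: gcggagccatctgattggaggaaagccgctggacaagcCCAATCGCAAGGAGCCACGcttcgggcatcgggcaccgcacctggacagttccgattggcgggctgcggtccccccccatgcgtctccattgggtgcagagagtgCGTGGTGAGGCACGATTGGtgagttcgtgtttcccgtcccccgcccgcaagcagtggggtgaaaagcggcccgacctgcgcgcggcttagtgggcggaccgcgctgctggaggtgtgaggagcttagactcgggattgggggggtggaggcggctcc
Pdia6: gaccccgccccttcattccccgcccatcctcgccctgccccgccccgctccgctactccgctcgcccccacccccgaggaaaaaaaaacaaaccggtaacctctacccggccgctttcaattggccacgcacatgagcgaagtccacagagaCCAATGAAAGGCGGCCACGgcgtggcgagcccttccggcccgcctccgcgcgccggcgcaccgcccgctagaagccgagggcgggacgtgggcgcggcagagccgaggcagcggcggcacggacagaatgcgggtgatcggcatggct
Sec24d: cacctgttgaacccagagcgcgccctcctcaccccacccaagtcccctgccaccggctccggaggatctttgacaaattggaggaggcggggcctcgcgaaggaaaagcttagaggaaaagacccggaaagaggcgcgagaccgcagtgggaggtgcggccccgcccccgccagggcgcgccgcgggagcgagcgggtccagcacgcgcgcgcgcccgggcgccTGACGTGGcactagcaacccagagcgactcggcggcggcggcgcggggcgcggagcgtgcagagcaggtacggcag
Kdelr3: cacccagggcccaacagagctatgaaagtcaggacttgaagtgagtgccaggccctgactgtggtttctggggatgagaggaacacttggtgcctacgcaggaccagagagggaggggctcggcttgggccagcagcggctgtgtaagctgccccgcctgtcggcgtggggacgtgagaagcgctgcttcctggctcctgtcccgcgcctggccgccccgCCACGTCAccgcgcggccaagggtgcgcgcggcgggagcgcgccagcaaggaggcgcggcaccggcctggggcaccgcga
Counted from the start as 0, the ERSE of Hspa5 began at base -65, those of Hsp90b1 at -212 and -107, and that of Pdia6 at -98. The other ERSEs were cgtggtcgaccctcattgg at -162 in Calr, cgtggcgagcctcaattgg at -126 in Creld2 and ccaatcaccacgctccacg at -145 in Canx, the first 2 of these on the opposite strand. The UPRE cores of Sec24d and Kdelr3 began at -26 and -30, close to the start, and that of Sec23a at 6. Of the 7 members with an ERSE or ERSE-II, 6 were tested. In PYS2 against XEN 4 of these 6 were lower in PYS2, with a median difference of -0.80, and of the 27 tested members with a promoter but neither element 9 were lower and 1 higher, with a median of -0.39. In END2 against XEN 3 of the 6 were lower in END2 (median -0.43), beside 9 lower and 3 higher of the 27 (median -0.08). In END2 against PYS2 1 of the 6 was higher (median 0.25), beside 7 higher and 5 lower of the 27 (median 0.19). Over all genes tested, 18.4% were lower and 21.2% higher in PYS2 than in XEN. The shares lower and higher in END2 were 26.7% and 27.5% against XEN, and 28.8% and 26.4% against PYS2. With 6 genes the counts by motif are counts only and not a result about the element.

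**Figure D2:**
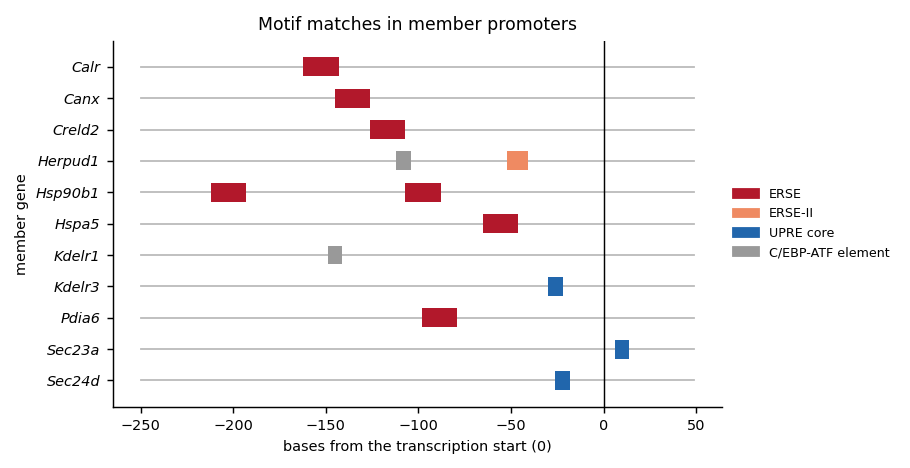
Matches of ERSE, ERSE-II, the UPRE core and the C/EBP-ATF element (colored blocks, to scale) in the 300 base promoters of the 11 members that hold any of them, by distance in bases from the transcription start at 0. The 6 promoters with an ERSE hold it between -212 and -47, and the UPRE cores of Sec24d, Kdelr3 and Sec23a lie within 30 bases of the start.

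The ER chaperones were highest in XEN cells. Of 6 tested, 5 were lower in PYS2 than in XEN (Hspa5, Hsp90b1, Hyou1, Sdf2l1 and Creld2), which is 83.3% beside 18.4% of all genes. In END2 4 were lower than in XEN (the same without Hsp90b1), which is 66.7% beside 26.7% of all genes. Only Hsp90b1 passed between END2 and PYS2, and Calr, the calcium-binding lectin chaperone calreticulin, passed in no comparison. Hspa5 (BiP) is the Hsp70 of the ER, which binds unfolded chains and holds the stress sensors inactive. Its signals were 63.0, 118 and 78.5 on the END2 arrays, 46.3, 81.1 and 44.3 on PYS2 and 91.9, 248 and 108 on XEN. After normalization the levels were 5.51, 6.39 and 6.45 in END2, 5.79, 6.07 and 5.43 in PYS2 and 7.03, 7.22 and 7.14 in XEN. All XEN arrays lay above all others, and the END2 and PYS2 arrays overlapped. The probe was detected on 2 of the 3 PYS2 arrays and on all arrays of the other lines. On PYS2 replicate 3 its signal lay under the lowest signal of a detected probe, so folds against PYS2 rest on values near background. The signal of 63.0 on END2 replicate 1 was also close to that array's lowest detected signal, 50.8. For Hspa5, XEN exceeded PYS2 2.58-fold (difference PYS2 minus XEN -1.37, SE 0.255, limma adjusted p 0.0014) and END2 2.03-fold (limma adjusted p 0.00557). The call against END2 was lost with no normalization between arrays (-0.76, limma adjusted p 0.171). Between END2 and PYS2 the difference was 0.35 (adjusted p 0.271).

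Hsp90b1 (GRP94), the Hsp90 of the ER and a chaperone of integrins and Toll-like receptors, had levels of 12.74, 13.20 and 13.02 in END2, 12.14, 12.41 and 11.44 in PYS2 and 13.21, 13.43 and 13 in XEN. The PYS2 arrays lay below all others, and the END2 and XEN arrays overlapped. END2 exceeded PYS2 1.99-fold (difference 0.99, SE 0.246, limma adjusted p 0.00521) and XEN exceeded PYS2 2.32-fold (-1.22, adjusted p 0.00237), whereas END2 and XEN differed by -0.22 (adjusted p 0.474). Hyou1 (GRP170) is a large Hsp70-like protein that releases nucleotide from Hspa5. Its levels were 6.8, 7.03 and 7.36 in END2, 6.14, 6.78 and 6.57 in PYS2 and 7.68, 7.95 and 7.41 in XEN, an order of PYS2, END2 and XEN with no overlap. XEN was 2.27-fold above PYS2 (SE 0.222, limma adjusted p 0.00152) and 1.53-fold above END2 (adjusted p 0.036). END2 exceeded PYS2 by 0.56 (adjusted p 0.051), which did not pass. The call between END2 and XEN was lost without END2 replicate 1 or 2 or without XEN replicate 1 or 2 (adjusted p 0.0802 to 0.137), and with cyclic loess or no filter on dim probes (adjusted p 0.0563 and 0.0979). Sdf2l1, which works with Hspa5 co-chaperones, stood in XEN 2.16-fold above END2 (adjusted p 8.14e-04) and 1.87-fold above PYS2 (adjusted p 0.00522). Creld2, a secreted ER stress protein, was 1.47-fold and 1.63-fold higher (adjusted p 0.032 and 0.0146), and both of its calls were lost without XEN replicate 1 or 2, among other arrays (adjusted p 0.0511 to 0.113).

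Among the disulfide isomerases and their partners, Pdia5 and Pdia4 differed in opposite directions between END2 and PYS2. Of 6 tested, 1 was higher and 1 lower in END2 than in PYS2 (16.7% each, beside 26.4% and 28.8% of all genes). Against XEN, 1 was higher and 3 lower in END2 (16.7% and 50%, beside 27.5% and 26.7%). In PYS2 2 were lower than in XEN (33.3%, beside 18.4%). In the last comparison all 6 differences lay below 0, from -0.88 to -0.18 with a median of -0.47. Pdia5, a member of the protein disulfide isomerase family, was lowest in END2 cells. Its signals were 723, 742 and 468 in END2, 1085, 1544 and 1555 in PYS2 and 1936, 3168 and 1622 in XEN, and its levels were 9.28, 9.27 and 9.05, then 10.39, 10.45 and 10.75, then 11.28, 11 and 10.94. The lines stood in the order END2, PYS2 and XEN without overlap. The difference was -1.33 for END2 minus PYS2 (SE 0.171, limma adjusted p 4.69e-05), -1.87 for END2 minus XEN (adjusted p 2.94e-06) and -0.54 for PYS2 minus XEN (adjusted p 0.0275). The last was lost without PYS2 replicate 1, PYS2 replicate 2 or XEN replicate 1 (adjusted p 0.0821 to 0.108). Its other tested probes gave -1.33 and -0.82 for END2 minus PYS2 and -1.99 and -1.41 for END2 minus XEN, all past the threshold.

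Pdia4 (ERp72), another isomerase of the family, went the other way. Its levels were 10.76, 11.10 and 10.50 in END2, 8.78, 9.88 and 9.47 in PYS2 and 10.02, 10.13 and 9.64 in XEN. The END2 arrays were the highest, and the PYS2 and XEN arrays overlapped. END2 was 2.66-fold above PYS2 (difference 1.41, SE 0.272, limma adjusted p 0.00101) and 1.81-fold above XEN (adjusted p 0.0199), a call that was lost without END2 replicate 2 or XEN replicate 3 (adjusted p 0.075 to 0.082) and with no filter on dim probes (adjusted p 0.0843). Pdia6 (P5), which also attenuates Ern1, had levels of 7.43, 8.15 and 7.98 in END2, 7.70, 8.27 and 7.91 in PYS2 and 8.87, 9.20 and 8.47 in XEN. Only the XEN arrays stood apart, above the others. XEN exceeded END2 1.99-fold (SE 0.247, limma adjusted p 0.00544) and PYS2 1.84-fold (adjusted p 0.0154, and 0.0504 to 0.0685 without PYS2 replicate 1, PYS2 replicate 3 or XEN replicate 2). Its second probe did not show the same order, with 0.89 for END2 minus PYS2 (adjusted p 0.00676) and -0.01 for END2 minus XEN (adjusted p 0.969). Ppib (cyclophilin B), a proline isomerase, was in END2 1.37-fold below its XEN level (adjusted p 0.0202), and this call was lost without END2 replicate 1 or 2 or XEN replicate 1 (adjusted p 0.0519 to 0.0663). P4hb, the founding disulfide isomerase and a subunit of collagen prolyl hydroxylase, and Pdia3, the isomerase of the calnexin cycle, differed by at most 0.32 in any comparison and did not pass.

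The signal recognition particle showed opposite differences in its Alu domain, which pauses elongation and is formed by Srp9 and Srp14. Srp14 had levels of 11.19, 11.34 and 11.55 in END2, 10.43, 10.40 and 9.93 in PYS2 and 11.23, 11.33 and 11.41 in XEN, so that PYS2 lay below the other lines. END2 exceeded PYS2 2.15-fold (difference 1.11, SE 0.182, limma adjusted p 3.24e-04) and XEN exceeded PYS2 2.10-fold (adjusted p 7.60e-04). Srp9 had levels of 9.91, 9.93 and 10.29 in END2, 11.07, 10.99 and 10.60 in PYS2 and 10.50, 10.46 and 10.34 in XEN, and here PYS2 lay above the other lines. PYS2 exceeded END2 1.79-fold (limma adjusted p 0.00216). The Srp9 difference of 0.45 for PYS2 minus XEN did not pass (adjusted p 0.0725), although its second probe gave 0.70 (adjusted p 0.0159). Srp54a, the GTPase that binds the signal peptide, did not pass, and its END2 levels ran from 6.65 to 7.99. The mouse genome holds close copies of this gene, and whether the probe tells them apart was not tested.

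At the translocon, 9 genes were tested. Compared with PYS2, END2 was higher for Sec61a1, Sec63, Ssr1 and Ssr3 and lower for Ssr4 (44.4% and 11.1%, beside 26.4% and 28.8% of all genes). Compared with XEN, END2 was higher for Sec63 and lower for Ssr1, Ssr2 and Ssr4 (11.1% and 33.3%, beside 27.5% and 26.7%). PYS2 was lower than XEN for Sec62, Ssr1 and Ssr3 (33.3%, beside 18.4%). Sec63 is the membrane J-protein that recruits Hspa5 to the channel. Its levels were 10.81, 10.91 and 11.10 in END2, 9.84, 10.06 and 10.14 in PYS2 and 9.96, 10.05 and 9.87 in XEN, with END2 above both other lines and those overlapping. END2 was 1.9-fold above PYS2 (difference 0.93, SE 0.16, limma adjusted p 4.67e-04) and 1.97-fold above XEN (adjusted p 3.25e-04). Its 2 further probes gave 0.77 and 0.94 against PYS2 and 0.88 and 0.92 against XEN, all past the threshold.

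Ssr1 to Ssr4 encode the subunits of the translocon-associated protein (TRAP) complex, which helps some signal peptides to open the channel, and they did not share an order. Ssr1 had levels of 8.62, 8.44 and 8.96 in END2, 7.88, 8.26 and 8.04 in PYS2 and 9.46, 9.26 and 9.31 in XEN, an order of PYS2, END2 and XEN without overlap. Its differences were 0.61 for END2 minus PYS2 (SE 0.182, limma adjusted p 0.0142, and 0.054 without PYS2 replicate 1), -0.67 for END2 minus XEN (adjusted p 0.00914) and -1.28 for PYS2 minus XEN (adjusted p 2.13e-04). Ssr4 had levels of 11.89, 11.88 and 12.03 in END2, 12.85, 12.78 and 12.49 in PYS2 and 12.79, 12.64 and 12.84 in XEN. END2 lay below the other lines, which overlapped. END2 was 1.71-fold below PYS2 (SE of the log2 difference 0.16, limma adjusted p 0.00168) and 1.77-fold below XEN (adjusted p 0.0011), and its second probe passed in the same comparisons. For Ssr3, END2 exceeded PYS2 1.59-fold and XEN exceeded it 1.62-fold (adjusted p 0.00421 and 0.00535), and Ssr2 was in END2 1.46-fold below its XEN level (adjusted p 0.0247, and 0.0698 to 0.103 without END2 replicate 1 or 2 or XEN replicate 1 or 3). The channel subunits Sec61a1, Sec61b and Sec61g differed by at most 0.44, and of these only Sec61a1 passed, between END2 and PYS2 (adjusted p 0.034, lost without any 1 of 5 arrays at 0.0501 to 0.0978). The second probe of Sec61b gave 0.55 there (adjusted p 0.0434). Sec62, the partner of Sec63, was detected on 1 END2 array, no PYS2 array and 2 XEN arrays, and its call between PYS2 and XEN (adjusted p 0.018) concerns signals of 26.6 to 82.5, so no fold is given. It was lost with the authors' normalized values (-0.18 in place of -0.69, adjusted p 0.0931) and without PYS2 replicate 2 or XEN replicate 3 (adjusted p 0.0698 to 0.0765).

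Signal peptidase was represented by Spcs1 and Spcs3. Spcs1, a small noncatalytic subunit, had levels of 13.08, 13.06 and 12.71 in END2, 12.86, 12.89 and 12.52 in PYS2 and 13.16, 13.37 and 13.28 in XEN. XEN lay above PYS2 without overlap, by 1.43-fold (SE 0.176, limma adjusted p 0.0387), and this call was lost without any 1 of 7 arrays (adjusted p 0.0511 to 0.134) and with the mean of the gene's probes (adjusted p 0.0681). Its second probe had a signal of 212 on PYS2 replicate 3 beside 2506 to 7376 on the other arrays. Spcs3, another accessory subunit, differed by at most 0.11 at its brighter probe, while its dimmer probe gave 0.83 for END2 minus PYS2 (adjusted p 0.00129) and -0.57 for PYS2 minus XEN (adjusted p 0.0181).

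**Figure D3:**
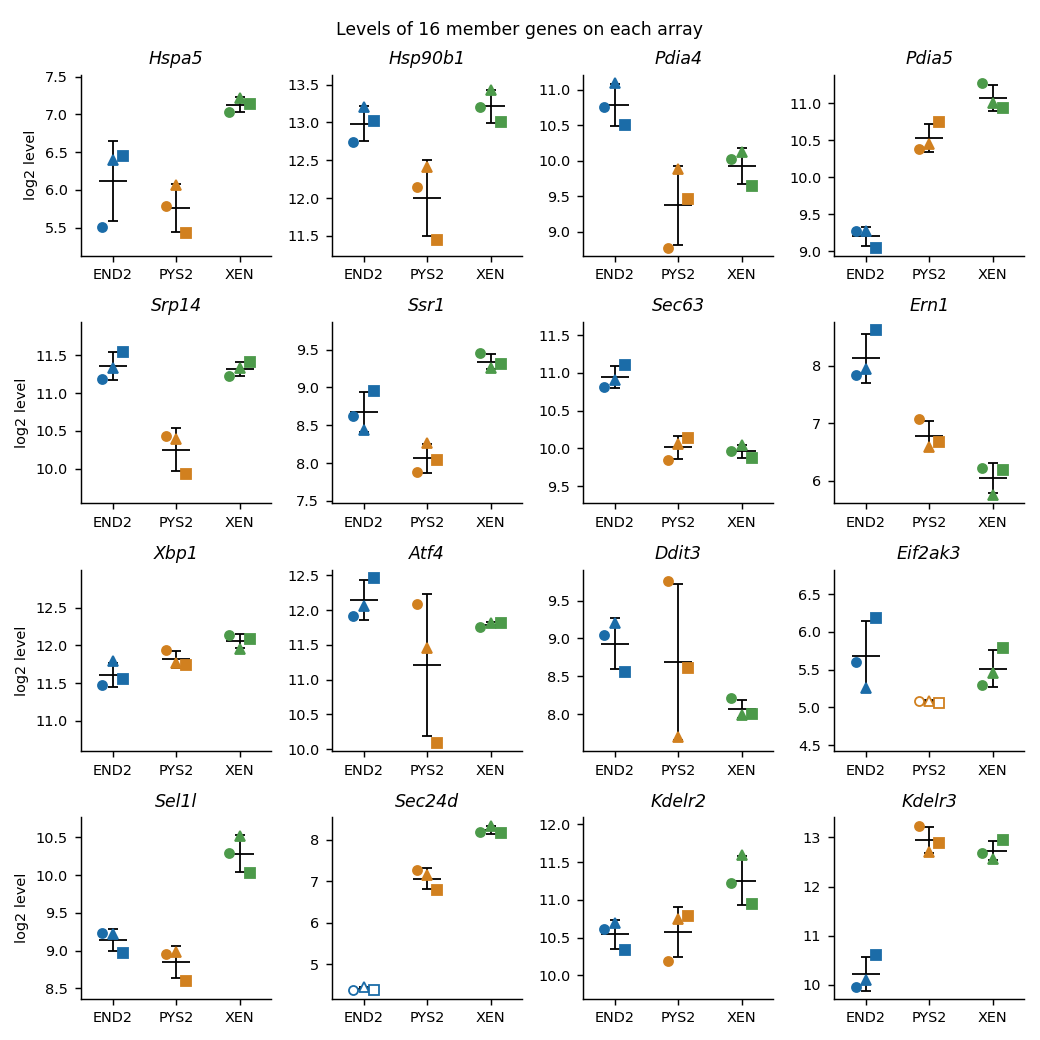
Log2 levels of 16 member genes on each array (circle, triangle and square for replicates 1, 2 and 3; blue END2, orange PYS2, green XEN), with the mean and SD of each line in black and open symbols where none of a line's arrays detected the probe. Vertical axes differ between panels and do not start at 0. Ern1 runs from END2 down to XEN, Sec24d runs the other way, Kdelr3 is low in END2 alone, and Atf4 and Ddit3 spread widely over the PYS2 arrays.

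Among the stress sensors, Ern1 differed most and was the only member with the order END2, PYS2, XEN from high to low in its calls. Ern1 encodes IRE1, the kinase and RNase that splices Xbp1 mRNA. Its signals were 282, 313 and 343 in END2, 104, 114 and 98.4 in PYS2 and 54.3, 97.9 and 58.4 in XEN, and its levels were 7.83, 7.94 and 8.61, then 7.08, 6.58 and 6.68, then 6.22, 5.75 and 6.19. No line overlapped another. END2 was 2.54-fold above PYS2 (difference 1.35, SE 0.237, limma adjusted p 5.34e-04) and 4.22-fold above XEN (2.08, adjusted p 1.89e-05). PYS2 was 1.66-fold above XEN (adjusted p 0.0314), and this smaller difference was lost without PYS2 replicate 1 or 3 or XEN replicate 2 or 3 (adjusted p 0.0517 to 0.126). It was also lost with the authors' normalized values, where it shrank to 0.28 (adjusted p 0.135), with no filter on dim probes (adjusted p 0.0982) and with no normalization between arrays (adjusted p 0.169). The other 2 probes of Ern1 were detected on no array. Eif2ak3 encodes PERK, the kinase that phosphorylates eIF2alpha and slows translation. It was detected on 2 END2 arrays, no PYS2 array and 2 XEN arrays, with signals of 67.1, 53.4 and 66.7, then 32.1, 44.4 and 35.6, then 32.5, 82.2 and 47.0. END2 lay above PYS2 by at least 1.08-fold, where the fold is taken against each PYS2 array's lowest level of a detected probe, or the probe's own level where that is higher (SE 0.229, limma adjusted p 0.0473). Leaving out any 1 of 7 arrays ended this call (adjusted p 0.0535 to 0.143). So did the authors' normalized values, with a difference of 0.16 in place of 0.59 (adjusted p 0.141), no background correction (0.40, adjusted p 0.0739), no normalization (adjusted p 0.105), no filter on dim probes (adjusted p 0.125) and a fit of END2 and PYS2 alone (adjusted p 0.0693). Atf6, the sensor that is cleaved in the Golgi, had 2 probes with signals of 16.3 to 72.7, none of them detected.

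The transcription factors of the response differed little or varied between arrays of a line. Xbp1, which drives chaperone, degradation and secretory genes once spliced, had signals of 3045, 3846 and 2704 in END2, 3293, 3821 and 3086 in PYS2 and 3628, 5966 and 3710 in XEN. Its levels were 11.48, 11.79 and 11.55, then 11.94, 11.76 and 11.74, then 12.14, 11.95 and 12.08, with XEN highest and END2 and PYS2 overlapping. XEN exceeded END2 1.36-fold (SE 0.158, limma adjusted p 0.0334), a call lost with the replicate number as a block (adjusted p 0.0535), with cyclic loess (adjusted p 0.0516) and without END2 replicate 1 or 3 or XEN replicate 1 or 3 (adjusted p 0.0562 to 0.119). The arrays do not tell the spliced from the unspliced form as analysed here. Atf4, the factor translated when eIF2alpha is phosphorylated, had levels of 11.91, 12.06 and 12.46 in END2, 12.08, 11.46 and 10.09 in PYS2 and 11.75, 11.81 and 11.81 in XEN. PYS2 replicate 3 stood far below the other arrays, at a signal of 970 beside 2696 to 5366. END2 minus PYS2 was 0.94 (SE 0.388, adjusted p 0.0616) and no comparison passed. Its second probe gave 0.45 there (adjusted p 0.0775). Ddit3, a proapoptotic factor induced downstream of Atf4, had levels of 9.04, 9.21 and 8.55 in END2, 9.76, 7.70 and 8.61 in PYS2 and 8.21, 7.99 and 8.0 in XEN. The PYS2 arrays spanned all END2 values, and END2 lay above XEN without overlap by 0.87 (SE 0.4, adjusted p 0.0898), which did not pass.

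In ER-associated degradation, Sel1l, the scaffold that joins the Hrd1 ubiquitin ligase to its substrates, stood out in XEN. Its signals were 700, 719 and 442 in END2, 393, 566 and 354 in PYS2 and 922, 2277 and 844 in XEN. The levels were 9.23, 9.22 and 8.97 in END2, 8.96, 8.98 and 8.6 in PYS2 and 10.29, 10.52 and 10.03 in XEN, with all XEN arrays above all others. XEN was 2.21-fold above END2 (END2 minus XEN -1.14, SE 0.185, limma adjusted p 3.06e-04) and 2.71-fold above PYS2 (-1.44, adjusted p 1.04e-04). A second probe gave -2.13 and -1.87 in those comparisons (adjusted p 6.07e-06 and 3.82e-05). Herpud1, a membrane protein of the same ligase complex whose promoter holds the ERSE-II, and Edem1, a lectin-like factor that hands glycoproteins to degradation, differed by at most 0.30 and did not pass.

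In export from the ER, Sec24d showed the widest gap of all members. It encodes a cargo-binding subunit of the COPII coat, and its loss is known in zebrafish to disturb collagen export. Its signals were 17.5, 23.2 and 16.5 in END2, where it was detected on no array, 119, 164 and 106 in PYS2 and 205, 510 and 219 in XEN. The levels were 4.38, 4.46 and 4.39, then 7.27, 7.14 and 6.79, then 8.19, 8.34 and 8.17, without overlap. Against END2, taken at the lowest level of a detected probe, the PYS2 level of Sec24d was higher by at least 3.33-fold (fitted difference -2.66, SE 0.166, limma adjusted p 8.91e-08) and its XEN level by at least 7.47-fold (-3.83, adjusted p 4.85e-09). XEN was 2.24-fold above PYS2 (adjusted p 2.15e-04). A second probe of the gene was detected on no array. Sec23a, the coat subunit that pairs with Sec24, differed by at most 0.54 and did not pass, and its level on END2 replicate 3 was 6.30 beside 7.79 and 7.78 on the other END2 arrays. Lman1 (ERGIC-53), the mannose-lectin cargo receptor, differed by at most 0.34 and did not pass.

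The KDEL receptors, which retrieve escaped chaperones from the Golgi, split between Kdelr3 and Kdelr2. Kdelr3 had signals of 1120, 1273 and 1386 in END2, 8643, 7482 and 6726 in PYS2 and 5581, 8968 and 7130 in XEN. The levels were 9.96, 10.10 and 10.61, then 13.24, 12.71 and 12.89, then 12.68, 12.57 and 12.95. Every END2 array lay far below every other array, and PYS2 and XEN overlapped. For Kdelr3, PYS2 exceeded END2 6.59-fold (END2 minus PYS2 -2.72, SE 0.215, limma adjusted p 7.18e-07) and XEN exceeded END2 5.69-fold (-2.51, adjusted p 1.68e-06), whereas PYS2 and XEN differed by 0.21 (adjusted p 0.489). Kdelr2 had levels of 10.61, 10.69 and 10.33 in END2, 10.19, 10.74 and 10.78 in PYS2 and 11.22, 11.59 and 10.95 in XEN, and here XEN alone stood apart. XEN exceeded END2 1.63-fold and PYS2 1.60-fold (SE 0.22, limma adjusted p 0.018 and 0.0306). Both calls were lost without XEN replicate 2 (adjusted p 0.0773 and 0.122), and that against PYS2 also without PYS2 replicate 1 or XEN replicate 1 (adjusted p 0.115 and 0.0666). With no filter on dim probes neither passed (adjusted p 0.0551 and 0.0838). Among the members, the UPRE core was found in the promoters of Sec24d, Kdelr3 and Sec23a. Sec24d and Kdelr3 had the largest differences of all members, and Sec23a did not pass. A link between the element and these levels was not tested.

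**Figure D4:**
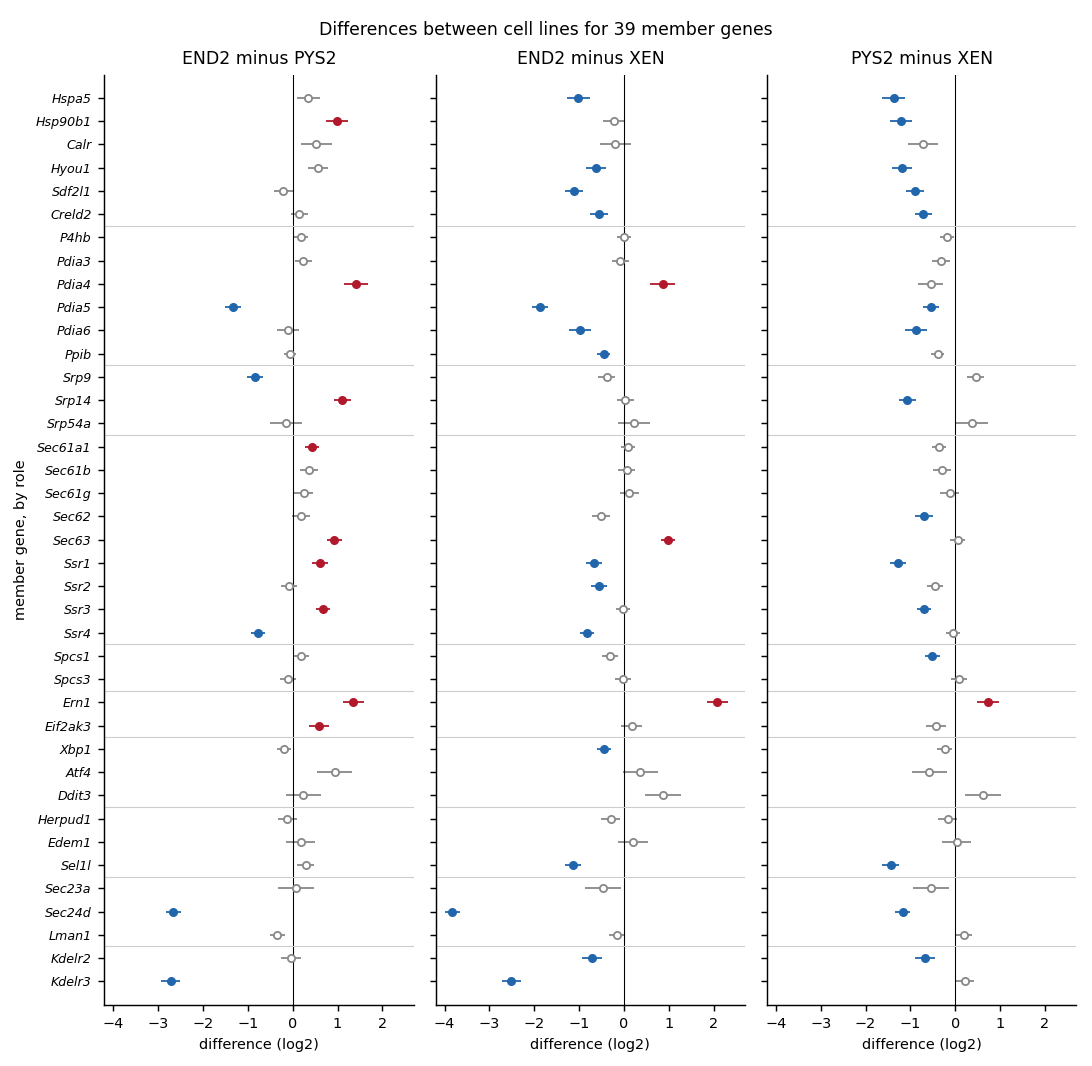
Differences between lines on the log2 scale (horizontal axis) for the 39 tested member genes, ordered by role, with standard errors of the fit; filled points passed at an adjusted p under 0.05 (red higher, blue lower in the line named first) and open points did not. In PYS2 minus XEN, 15 of the 16 filled points lie below 0, and Sec24d and Kdelr3 lie lowest in both comparisons with END2.

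The 13 members with more than 1 tested probe allow a check within genes. In 10 of their 39 comparisons the probes of a gene gave different calls, in Creld2, Pdia5, Pdia6, Sec61b, Spcs1, Spcs3 and Srp9, and in none were the calls opposite in direction. The 31 calls that held whichever array was left out include those of Sec24d, Kdelr3, Sel1l, Sec63, Ssr4, Srp14, Hspa5 and Hsp90b1, of Ern1 and Pdia5 in comparisons with END2, and of Pdia4 between END2 and PYS2.

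A further 123 genes of the same pathway, listed by function, were read from the same fit, and 106 of them were tested. Between END2 and PYS2, 22 were higher and 23 lower in END2 (20.8% and 21.7%, beside 26.4% and 28.8% of all genes). Between END2 and XEN the counts were 18 and 28 (17.0% and 26.4%, beside 27.5% and 26.7%), and between PYS2 and XEN they were 14 higher and 20 lower in PYS2 (13.2% and 18.9%, beside 21.2% and 18.4%). These shares lay near or below those of all genes, and the medians were -0.06, -0.11 and -0.12. For these genes a difference given without a fold is on the log2 scale, and shares of all genes in parentheses below are those of the same comparison and direction.

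Among 11 further genes of targeting and translocation, 5 were lower in END2 than in XEN (45.5%, beside 26.7% of all genes), and 5 were lower and 2 higher in PYS2 than in XEN (45.5% and 18.2%, beside 18.4% and 21.2%). Srprb, the membrane-anchored subunit of the signal recognition particle receptor, had levels of 9.75, 9.55 and 10.07 in END2, 9.07, 9.69 and 9.82 in PYS2 and 11.32, 11.53 and 11.24 in XEN. XEN stood alone, 2.97-fold above END2 and 3.56-fold above PYS2 (SE 0.221, limma adjusted p 1.01e-04 and 6.15e-05), while END2 minus PYS2 was 0.26 (adjusted p 0.345) and turned to -0.78 with the mean of the gene's probes. Tram1, a membrane protein beside the translocon, had levels of 11.98, 11.85 and 12.19 in END2, 13.01, 12.89 and 12.94 in PYS2 and 12.14, 12.41 and 12.27 in XEN. PYS2 lay above the other lines, by 1.92-fold over END2 and 1.60-fold over XEN (SE 0.159, adjusted p 3.94e-04 and 0.006), and the latter call was lost with the mean of the gene's probes (adjusted p 0.192). Its relative Tram2 had levels of 5.04, 5.08 and 5.61 in END2, where 1 array detected it, 6.29, 6.61 and 7.20 in PYS2 and 5.68, 5.44 and 5.79 in XEN. Here too PYS2 lay highest, by 1.45 and 1.06 (SE 0.245, adjusted p 3.94e-04 and 0.00542).

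The oligosaccharyltransferase, which attaches N-glycans, had 8 tested genes, and END2 against PYS2 gave 1 higher and 2 lower (12.5% and 25%, beside 26.4% and 28.8%). Stt3a, the catalytic subunit that works during translocation, had levels of 7.41, 7.95 and 8.41 in END2, 8.73, 8.57 and 8.81 in PYS2 and 8.83, 8.93 and 8.71 in XEN. END2 lay below both lines, by 0.78 and 0.90 (SE 0.228, limma adjusted p 0.0131 and 0.00599), and the call against PYS2 was lost without END2 replicate 1 (adjusted p 0.0569). Stt3b, the catalytic subunit that glycosylates skipped sites, had levels of 12.60, 12.73 and 12.65 in END2, 11.74, 11.87 and 11.21 in PYS2 and 12.54, 12.62 and 12.74 in XEN. PYS2 lay below both lines, by 1.06 against END2 (SE 0.188, adjusted p 5.68e-04) and 1.03 against XEN (adjusted p 0.00121, and 0.0614 with the mean of the gene's probes). Ostc, a subunit of the Stt3a complex, had levels of 12.24, 12.33 and 11.99 in END2, 12.29, 12.58 and 12.66 in PYS2 and 12.84, 13 and 12.64 in XEN. END2 and PYS2 overlapped, and END2 lay 0.64 lower when set against XEN (SE 0.177, adjusted p 0.00987).

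Among 17 tested folding enzymes of the calnexin cycle and related families, END2 against PYS2 gave 8 lower and 2 higher (47.1% and 11.8%, beside 28.8% and 26.4% of all genes), and END2 against XEN gave the same counts (beside 26.7% and 27.5%). Txndc12, a thioredoxin-fold protein of the ER, had levels of 8.76, 9.18 and 8.97 in END2, 11.54, 11.56 and 11.33 in PYS2 and 11.79, 11.53 and 11.36 in XEN. END2 lay far below both lines, by 2.5 and 2.59 (SE 0.178, limma adjusted p 2.85e-07 and 2.42e-07). Uggt2, a glucosyltransferase that marks misfolded glycoproteins for another round of folding, had levels of 5.47, 5.63 and 4.93 in END2, where 2 arrays detected it, 7.02, 7.56 and 7.68 in PYS2 and 7.27, 7.33 and 7.20 in XEN. It was likewise lower in END2, by 2.07 and 1.92 (SE 0.224, adjusted p 1.09e-05 and 2.25e-05). Fkbp7, a proline isomerase, ran the other way, with levels of 7.72, 8.31 and 7.96 in END2, 5.63, 5.08 and 5.32 in PYS2 and 6.67, 6.37 and 6.31 in XEN. It was detected on no PYS2 array, and END2 lay at least 5.38-fold above PYS2 (adjusted p 6.36e-07) and 1.55 above XEN (SE 0.207, adjusted p 6.85e-05).

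Of the co-chaperones of Hspa5, 5 were tested, and END2 against PYS2 gave 1 higher and 2 lower (20% and 40%, beside 26.4% and 28.8% of all genes). Dnajc3 (p58IPK), which also restrains the eIF2alpha kinases, had levels of 7.39, 7.45 and 7.69 in END2, 9.55, 9.56 and 9.55 in PYS2 and 9.0, 8.88 and 8.98 in XEN. The lines stood in the order END2, XEN and PYS2 without overlap, with END2 2.04 below PYS2 and 1.44 below XEN (SE 0.151, limma adjusted p 3.92e-07 and 9.15e-06) and PYS2 0.60 above XEN (adjusted p 0.00883). Dnajc10 (ERdj5), which reduces disulfides before degradation, had levels of 11.36, 11.32 and 11.49 in END2, 10.15, 10.12 and 10.42 in PYS2 and 11.75, 11.84 and 11.57 in XEN. It was lowest in PYS2, by 1.16 below END2 and 1.49 below XEN (SE 0.16, adjusted p 8.40e-05 and 2.48e-05). Sil1, a nucleotide exchange factor of Hspa5, had levels of 7.35, 7.49 and 7.43 in END2, 7.76, 8.08 and 8.32 in PYS2 and 7.39, 6.95 and 6.96 in XEN. It was highest in PYS2, by 0.63 over END2 and 0.95 over XEN (SE 0.191, adjusted p 0.0154 and 0.00225), and the call against END2 was lost without END2 replicate 1 or PYS2 replicate 3 (adjusted p 0.0516 and 0.0628).

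Of 16 other degradation genes, END2 exceeded PYS2 for 3 and 13 did not pass (18.8% higher, beside 26.4%). Selenok, a selenoprotein of the degradation machinery, had levels of 8.46, 8.94 and 8.76 in END2, 9.35, 9.15 and 8.66 in PYS2 and 9.87, 9.85 and 9.54 in XEN. XEN lay above both lines, by 1.03 over END2 (SE 0.213, limma adjusted p 0.00166) and 0.70 over PYS2 (adjusted p 0.0225, lost without PYS2 replicate 3, XEN replicate 1 or XEN replicate 2 at 0.0885, 0.0751 and 0.074). Selenos, another such selenoprotein, had levels of 10.97, 11.15 and 10.89 in END2, 11.40, 11.44 and 11.24 in PYS2 and 12.06, 11.98 and 11.91 in XEN. XEN again lay above both, by 0.98 and 0.62 (SE 0.152, adjusted p 2.25e-04 and 0.00762). Nploc4, the p97 cofactor, had levels of 9.77, 9.29 and 9.95 in END2, 9.16, 8.77 and 9.01 in PYS2 and 8.50, 8.71 and 8.77 in XEN. END2 lay above both lines, by 0.69 over PYS2 (SE 0.199, adjusted p 0.0126, and 0.0532 without PYS2 replicate 2) and 1.01 over XEN (adjusted p 0.00126).

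Of 18 COPII and cargo receptor genes, END2 was lower for 5 against PYS2 (27.8%, beside 28.8%) and for 5 against XEN (27.8%, beside 26.7%), shares near those of all genes. Lman2 (VIP36), a lectin that carries glycoproteins, had levels of 7.96, 8.01 and 8.80 in END2, 10.32, 10.39 and 10.56 in PYS2 and 9.74, 9.64 and 9.41 in XEN. END2 lay below both lines, by 2.17 and 1.34 (SE 0.224, limma adjusted p 7.64e-06 and 3.82e-04). Tmed3, a p24 cargo receptor, had levels of 7.81, 7.99 and 7.63 in END2, 9.16, 8.90 and 8.71 in PYS2 and 9.41, 8.75 and 9.0 in XEN. END2 was again lowest, by 1.11 and 1.24 (SE 0.205, adjusted p 7.39e-04 and 3.48e-04). Tmed10, of the same family, had levels of 11.31, 11.29 and 11.27 in END2, 12.12, 12.11 and 11.98 in PYS2 and 12.59, 12.61 and 12.37 in XEN. END2 lay below the others by 0.78 and 1.23 (SE 0.149, adjusted p 9.18e-04 and 2.96e-05).

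Among the genes known to be induced through eIF2alpha phosphorylation and Atf4, Cebpb, Chac1 and Slc7a11 were far higher in END2. Of 19 tested, 7 were higher and 3 lower in END2 than in XEN (36.8% and 15.8%, beside 27.5% and 26.7% of all genes, median 0.41), and 6 were higher and 1 lower in END2 than in PYS2 (31.6% and 5.26%, beside 26.4% and 28.8% of all genes, median 0.11). Cebpb, a bZIP transcription factor, had levels of 12, 11.89 and 12.37 in END2, 9.23, 8.47 and 8.26 in PYS2 and 7.13, 7.05 and 7.21 in XEN, without overlap between lines. END2 exceeded PYS2 by 3.43 and XEN by 4.95 (SE 0.241, limma adjusted p 2.54e-07 and 1.26e-08). Chac1, a glutathione-degrading enzyme, had levels of 10.93, 11.04 and 11.57 in END2, 9.62, 6.91 and 7.90 in PYS2 and 7.42, 7.46 and 8.95 in XEN. END2 lay above both lines, by 3.04 and 3.24 (SE 0.586, adjusted p 0.00102 and 6.68e-04), and PYS2 replicate 1 was the highest PYS2 array, as it was for Ddit3. Slc7a11, the cystine transporter xCT, had levels of 7.01, 6.55 and 8.59 in END2, 5.59, 4.38 and 4.49 in PYS2 and 4.39, 4.35 and 4.45 in XEN. It was detected on 3 END2 arrays and on none of the others, at least 3.52-fold above PYS2 and at least 3.63-fold above XEN (adjusted p 5.63e-04 and 1.91e-04).

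Other targets of that branch ran the opposite way, and those named here were picked out with their values known. Sesn2, a stress-induced regulator of growth signalling, had levels of 5.60, 5.49 and 6.38 in END2, 7.39, 6.97 and 7.08 in PYS2 and 7.55, 7.88 and 7.30 in XEN. It was the only target called lower in END2 than in PYS2, by 1.32 (SE 0.251, limma adjusted p 9.12e-04), and it lay 1.76 below XEN (adjusted p 1.15e-04). Atf3, a stress-induced transcription factor, had levels of 7.36, 7.02 and 8.19 in END2, 8.67, 7.71 and 6.82 in PYS2 and 8.68, 9.23 and 9.14 in XEN. END2 and PYS2 overlapped below XEN, and END2 lay 1.5 below it (SE 0.415, adjusted p 0.01, and 0.071 with no filter on dim probes). Psat1, an enzyme of serine synthesis, lay 0.61 below XEN in END2 (adjusted p 0.0199), a call lost without END2 replicate 1 or 2 or XEN replicate 2 or 3 (adjusted p 0.0543 to 0.0768). Ppp1r15a (GADD34), the phosphatase subunit that reverses the phosphorylation, differed by at most 0.21 and did not pass.

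Of 12 other stress transducers, 5 were higher and 1 lower in END2 against PYS2 (41.7% and 8.33%, beside 26.4% and 28.8% of all genes), and the counts against XEN were the same (beside 27.5% and 26.7%). Creb3l1 (OASIS), a membrane-bound factor related to Atf6 that promotes collagen expression, had levels of 5.88, 5.78 and 6.36 in END2, 4.61, 4.50 and 4.55 in PYS2 and 4.42, 4.47 and 4.41 in XEN. It was detected only in END2, at least 1.35-fold above PYS2 and at least 1.39-fold above XEN (adjusted p 2.90e-05 and 1.64e-05). Its relative Creb3l2 (BBF2H7), an activator of Sec23a in cartilage, had levels of 9.53, 9.58 and 10.42 in END2, 8.65, 8.01 and 8.48 in PYS2 and 8.73, 9.15 and 9.02 in XEN. END2 was highest, by 1.47 and 0.87 (SE 0.259, adjusted p 5.50e-04 and 0.0141), and the call against XEN was lost without XEN replicate 1 (adjusted p 0.0585) and with no filter on dim probes (adjusted p 0.0617). Nfe2l2 (NRF2), the antioxidant factor that PERK phosphorylates, had levels of 7.14, 7.08 and 6.08 in END2, 5.30, 5.90 and 4.73 in PYS2 and 5.44, 5.52 and 4.84 in XEN. It was detected on 3 END2 arrays and on 1 array of each other line, so its differences of 1.45 and 1.5 (SE 0.343, adjusted p 0.0039 and 0.00328) are against values mostly near background.

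**Figure D5:**
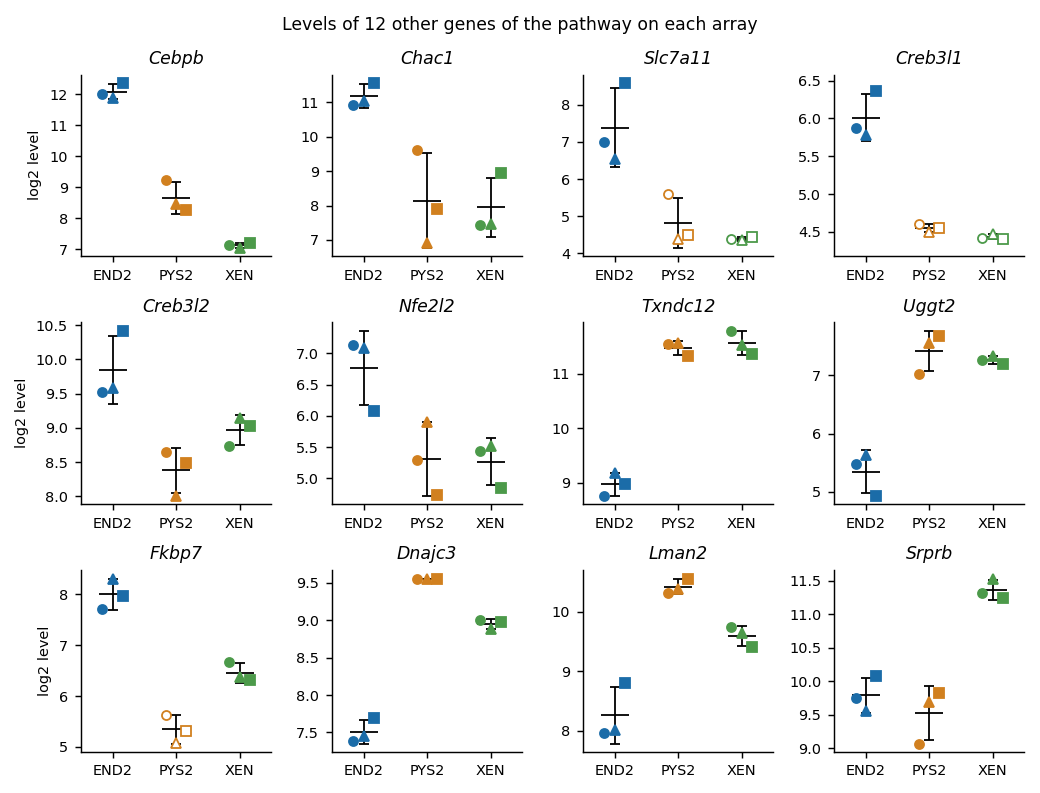
Log2 levels of 12 other genes of the pathway on each array, drawn as in the plot of 16 member genes (circle, triangle and square for replicates 1 to 3, mean and SD in black, open symbols where no array of a line detected the probe; axes differ and do not start at 0). The first 6 genes are highest in END2, Txndc12, Uggt2, Dnajc3 and Lman2 are lowest in END2, Fkbp7 is lowest in PYS2, and Srprb is highest in XEN.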

How the data were processed

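Total RNA of 3 mouse cell lines was labelled with biotin and measured on 9 Illumina bead arrays (3 per line). The deposited scanner table holds, for each probe and array, the mean intensity over beads, the SD of that intensity, the number of beads (the other deposited measure), and a detection score, a fraction from 0 to 1 that was read here as 1 minus the detection p-value. Background subtraction by the scanner software is neither stated nor denied in the sources used here. A second deposited table holds log2 values that the authors normalized between arrays with lumi (version not given), and it served as an alternative. Another 24 columns match no sample of the series and were not used.

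Intensities were background corrected and quantile normalized with neqc (limma 3.58.1, R 4.3.3, offset 16). Probes with a detection p under 0.01 on at least 2 of the 3 arrays of a line were tested, 16299 of 45281. A gene was represented by its tested probe with the highest mean level, which left 9354 genes. One linear model over the 9 arrays with moderated tests was fitted. The p-values were adjusted over all 16299 tested probes by Benjamini and Hochberg, with a threshold of 0.05. The procedure was tested on simulated data. Probes were named from the platform annotation, in which 34885 probes have a single symbol, 18 several and 10378 none, and 34807 of the single symbols matched RefSeq (GRCm38.p6). Probe positions are not given here.

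Members and lists were chosen with earlier results of these data known. Values on each array are given for the stress sensors and their transcription factors, and in every other role and list for up to 3 genes with the largest differences among those that passed with no overlap of arrays. Sesn2 and Atf3, also given by array, and Psat1 and Ppp1r15a were named outside this rule, with their values known. Promoters came from RefSeq tables (GRCm38.p6). Samples were grouped by line, as their titles give it. Alternatives were the authors' values, no background correction, no normalization, cyclic loess, other filters, a replicate block, another spread model, array weights, fits of a pair of lines, gene means and leaving out each array. Precision is limited by 3 arrays a line. Of the 9 pairs of same-numbered arrays not all deviated together, so the numbers were not taken as pairs.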

Additional observations from a re-analysis of the deposited data

How the results depend on the processing

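No call of a member changed direction under any of the 20 alternatives. Of the 48 calls, 19 held under every alternative and 31 held whichever array was left out. With no normalization between arrays, the members that passed were 5 higher and 3 lower in END2 than in PYS2, 3 lower in END2 than in XEN, and 0 higher and 6 lower in PYS2 than in XEN. The single member higher in PYS2 than in XEN, Ern1, did not pass with no filter on dim probes, where the count was 0, or with the authors' normalized values (0.28 in place of 0.73, adjusted p 0.135), and the count was 2 with a trended and robust spread, with array weights and with the mean of a gene's probes. Array weights also gave 5 members higher in END2 than in XEN. With 1 array left out at a time, members higher in END2 than in PYS2 ranged from 7 to 9 and lower from 5 to 6, members higher in END2 than in XEN from 2 to 4 and lower from 11 to 15, and members higher in PYS2 than in XEN from 0 to 2 and lower from 11 to 18. Here 0 was reached without PYS2 replicate 1, XEN replicate 2 or XEN replicate 3. The cause of these changes was not tested. For the alternatives here and below, counts over all genes are not given beside those of the members. A change in a count is therefore not read as a trait of the members.

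With the replicate number as a block, 10 members were higher and 5 lower in END2 than in PYS2, 3 higher and 14 lower in END2 than in XEN, and 1 higher and 15 lower in PYS2 than in XEN. Correlations of deviations between same-numbered arrays ran from -0.276 to 0.31. All 3 pairs of replicate 2 lay above 0.1, while the pairs of replicate 1 and of replicate 3 had either sign. These values do not settle whether same-numbered arrays share more than a number. The block ended the call of Xbp1 between END2 and XEN. Of 57 calls of 28 other named pathway genes, 35 held under every alternative and 10 were lost only with no normalization. For Srprb, END2 against PYS2, the mean of a gene's probes gave -0.78 (adjusted p 0.00208) in place of 0.26 (adjusted p 0.345). The alternatives for 4 of these genes were added after seeing the data. Signals near background limit Hspa5 in PYS2 and on END2 replicate 1, and Eif2ak3, Sec62, Edem1 and Nfe2l2, and 6 members could not be tested.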
